A study of Mus musculus with 90 samples.

Results

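The passage from the 2-cell (2c) to the 8-cell (8c) stage was followed in single wild-type (WT) mouse embryos, by comparing the 15 labelled WT 8c embryos with the WT 2c embryos. Of the 29 WT embryos labelled with these stages, 26 were kept (11 of 14 at 2c and 15 of 15 at 8c), out of 90 libraries in the series and 78 kept in all. The 3 WT 2c libraries left out held 4432, 4651 and 93953 gene counts and had a median over the expressed genes below 1 CPM, the unit of counts scaled to a common library total. The embryos came from superovulated WT females of the CD-1 strain, given pregnant mare serum and human chorionic gonadotropin, mated with WT studs and cultured in KSOM medium. The 2c embryos were picked at 45 to 47 h and the 8c embryos at 71 to 73 h. The matPlag1KO embryos, from Plag1 knockout mothers and WT studs, carried the WT allele of the father. They were used at the same stages (11 and 11 kept) to test whether the change itself differed. WT MII oocytes (16) gave the level before fertilization. These libraries and those of Plag1 knockout MII oocytes (14) also entered the shared statistical fit, and so its estimate of the spread. All groups share the superovulation, and no label names the female behind an embryo. The p-values therefore measure the spread between single embryos and oocytes, some of which may come from the same female.

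In the mouse the fertilized egg starts with mRNA stored by the oocyte, and the embryonic genome is switched on in earnest at the 2-cell stage. That wave includes a short burst of genes, many in tandem arrays and some driven by retroviral elements, which is silenced again within a cell cycle or so. A later wave, often called mid-preimplantation activation, raises further the transcripts for protein synthesis. It also brings up those for respiration and cell adhesion with which the embryo compacts and prepares the blastocyst.

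The 8c embryos held more RNA per spike-in molecule than the 2c embryos. The same amount of synthetic spike-in RNA was added to each embryo, so the ratio of gene counts to spike-in counts measures the polyadenylated RNA of a whole embryo, not of a cell. It lay between 13.2 and 21.9 (median 15.5) at 2c and between 25 and 57.4 (median 50.8) at 8c, and the stages did not overlap. The mean log2 ratio was 1.54 ± 0.11 (SE) higher at 8c, a 2.91-fold difference (permutation test, two-sided, p = 2e-05, the smallest that 100000 resamples can give, n = 11 and 15). The labels name 2 pools of libraries, libA and libB, here called plates A and B, and a code such as E1, here called a well. Within plate A the fold was 3.03 (exact permutation test, p = 0.00606, n = 4 and 7). Within plate B it was 2.83 (exact permutation test, p = 0.000311, n = 7 and 8). The 8c libraries of well E1 were the lowest in both plates, at 29.8 and 25, with the next at 39.1. Gene counts per library ran from 116914 to 194287 at 2c and from 264386 to 696870 at 8c, while the spike-in counts had means of 9513 and 11534.

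**Figure D1:**
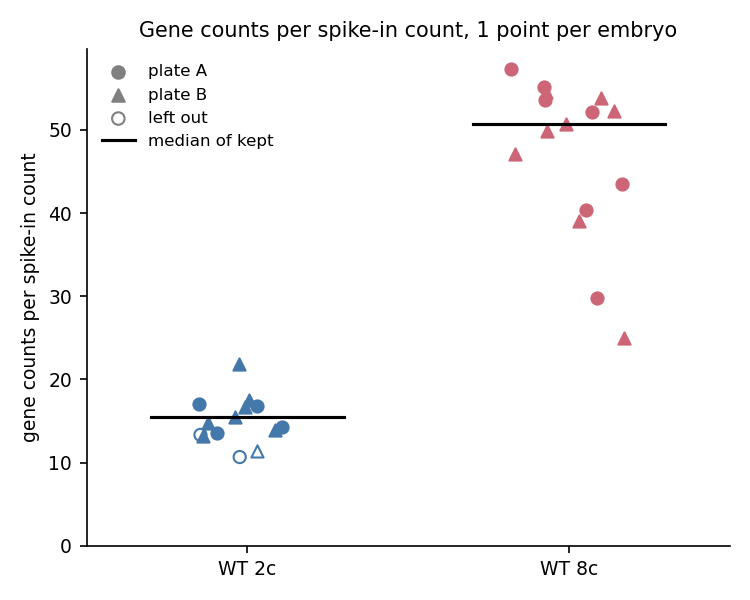
Gene counts per spike-in count (vertical axis, from 0) for each WT 2c and 8c embryo, circles for plate A and triangles for plate B, with open symbols for the 3 libraries left out and a bar at the median of the kept libraries. The kept 2c embryos reach 21.9 and the 8c embryos start at 25.

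Levels are given below as counts per 10000 spike-in counts, the median first and the lowest and highest embryo in parentheses. They are levels per embryo, in which the number of cells and the RNA per cell cannot be told apart. Log2 fold changes (8c against 2c), with their SE, come from edgeR's quasi-likelihood test with the spike-in totals as library sizes. Of 16511 genes tested, 5269 rose (31.9%) and 2681 fell (16.2%) at a Benjamini-Hochberg adjusted p under 0.05. Scaling by the trimmed mean of M-values (TMM), which sets the bulk of genes as unchanged and so reads each gene relative to the rest of the transcriptome, gave 3475 that rose (21%) and 4767 that fell (28.9%). Over the tested genes the log2 fold change had a median of 0.53 with spike-in totals and -0.12 with TMM, a shift of 0.65. No gene was called in opposite directions: the 3475 genes that rose and the 2681 that fell under both scalings were all of the TMM rises and all of the spike-in falls. In 1311 genes (7.94%) every 8c embryo stood above every 2c embryo, and in 291 genes (1.76%) every 8c embryo stood below. Among the calls, 685 genes that rose had no count in any 2c embryo and 556 that fell had none at 8c. A fold against such a group is given below as a lower bound, from 3 counts over the group.

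**Figure D2:**
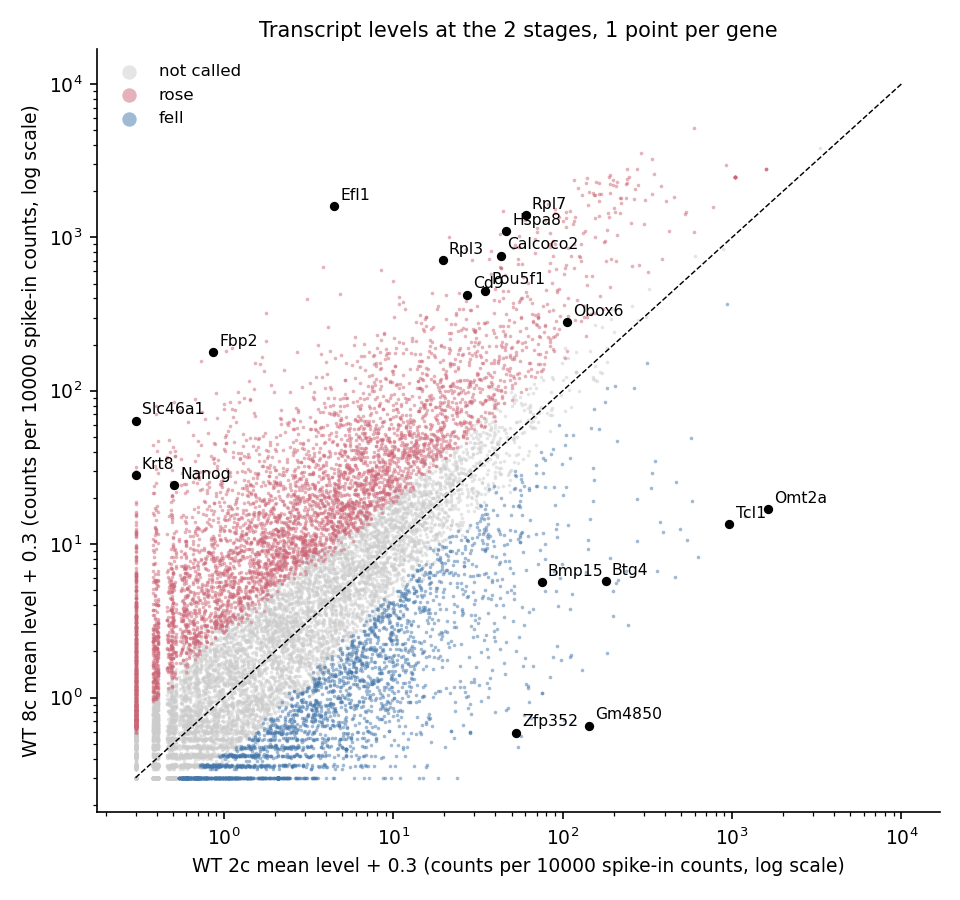
Mean level in the 15 WT 8c embryos (vertical axis) against the 11 WT 2c embryos (horizontal axis), in counts per 10000 spike-in counts with 0.3 added, both on log scales, 1 point per tested gene, red for genes that rose, blue for genes that fell and grey for genes not called. The 5269 rising genes lie above the dashed line of equal level and the 2681 falling genes below it, with labels on 18 genes described in the text.

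Transcripts of the 2-cell burst were lost. Of 44 listed genes 37 were tested, of which 27 fell (73.0%, against 16.2% of all tested genes) and 1 rose with spike-in totals (median log2 fold change -2.29). Under TMM 32 fell and 1 rose (median -3.36), beside 28.9% and 21% of all tested genes. Zfp352, a zinc-finger gene used as a mark of the 2-cell burst, was at 35.7 (14.4 to 135) in the 2c embryos and at 0 (0 to 2.0) in the 8c embryos. Each 2c embryo exceeded each 8c embryo (log2 fold change -7.00 ± 0.53 SE, adjusted p = 4.58e-20), and the median in MII oocytes was 0. Zscan4d, of the telomere-associated zinc-finger family that marks 2-cell embryos and 2-cell-like stem cells, was at 2.74 (0 to 6.13) at 2c with no count in any 8c embryo, at least 16-fold lower (adjusted p = 4.43e-08), and the ranges touched at 0. Zscan4c was at 0.940 (0 to 12.9) at 2c and likewise at 0 in every 8c embryo, at least 18.2-fold lower (adjusted p = 1.28e-05). Usp17lb, of a tandem family of deubiquitinases, was at 8.21 (1.03 to 44.7) at 2c and at 0 in all 8c embryos, at least 81.6-fold lower (adjusted p = 1.7e-13). The Zscan4, Usp17l and Eif1a-like genes have near-identical copies that share reads, so the level of 1 copy is uncertain. Dux, the homeobox gene known as an early activator of this burst, was among the 27 that fell. The member that rose was Calcoco2, an autophagy receptor, from 48.3 (19.4 to 74.2) to 804 (202 to 1186) without overlap (log2 fold change 4.15 ± 0.46 SE, adjusted p = 1.11e-12). Tcstv1 and Tcstv3 had no count in either stage.

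The upstream sequences of 3 burst genes are shown because their matches to short motifs differ from those of the genes that rose. Each is the 250 bases before the annotated start on mm9, read 5′ to 3′ on the gene's strand, with matches to 9 motifs in capitals, on either strand. Zscan4d lies at chr7:11751498-11751747, minus strand, Gm2022, an Eif1a-like gene that overlaps the annotation of Oog1 on the same strand, at chr12:89131028-89131277, plus strand, and Zfp352 at chr4:89885261-89885510, plus strand.
Zscan4d: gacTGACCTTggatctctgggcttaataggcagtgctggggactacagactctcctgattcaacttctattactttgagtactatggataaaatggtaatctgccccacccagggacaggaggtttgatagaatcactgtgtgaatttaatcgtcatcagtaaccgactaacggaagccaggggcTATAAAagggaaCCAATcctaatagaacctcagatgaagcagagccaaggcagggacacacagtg
Gm2022: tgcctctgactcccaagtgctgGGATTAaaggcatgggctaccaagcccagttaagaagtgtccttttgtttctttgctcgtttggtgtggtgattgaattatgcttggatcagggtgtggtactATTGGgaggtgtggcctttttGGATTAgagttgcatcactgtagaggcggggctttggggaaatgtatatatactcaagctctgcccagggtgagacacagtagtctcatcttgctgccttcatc
Zfp352: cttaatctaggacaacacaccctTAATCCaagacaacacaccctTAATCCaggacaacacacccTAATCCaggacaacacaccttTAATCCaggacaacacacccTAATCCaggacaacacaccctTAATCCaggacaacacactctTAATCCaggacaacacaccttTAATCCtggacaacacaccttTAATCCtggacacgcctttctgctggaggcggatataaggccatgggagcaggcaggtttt
In Zscan4d the capitals mark an Nr5a site (AAGGTCA, here on the other strand), a TATA box (TATAAA) 65 bases before the start and a CCAAT box. In Gm2022 they mark the bicoid-type core GGATTA, bound by homeobox proteins of the Otx and Obox kind, at 228 and 104 bases before the start, and a CCAAT box on the other strand (ATTGG). In Zfp352 they mark 9 copies of that core on the other strand (TAATCC), spaced 20 or 21 bases apart from 227 to 61 bases before the start. It was the highest number of copies in any of 16508 promoters, of which 6 held 3 or more.

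The genes with the largest falls, chosen by fold among the genes with at least 50 CPM in a stage, included several known only by a clone or model name. Gm4850 went from 129 (54.7 to 267) at 2c to 0 (0 to 1.94) at 8c (log2 fold change -8.11 ± 0.55 SE, adjusted p = 9.66e-22). B020004C17Rik went from 91 (77.1 to 146) to 0 (0 to 2.0) (log2 fold change -7.59 ± 0.51 SE, adjusted p = 6.11e-23). Both had a median of 0 in MII oocytes, and neither overlapped between the stages. Rfpl4b, Spdye4b and Gm2022 were at 0 in all 15 8c embryos and were at least 131, 101 and 82.1-fold lower than at 2c. Gm4971, Gm13078, Zfp352, AA415398 and Usp17lb made up the rest of these 10 genes. In all 10 the lowest 2c embryo stood above the highest 8c embryo, as in 291 of all tested genes (1.76%). The 10 were picked by fold in these same embryos, so their separation is not separate support.

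Most oocyte transcripts also fell, but several were not called with spike-in totals. Of 46 tested genes of the oocyte list, 30 fell (65.2%, against 16.2% of all tested genes) and 3 rose (6.52%, against 31.9%) with spike-in totals (median log2 fold change -2.31). With TMM 36 fell and 2 rose (median -3.25), beside 28.9% and 21% of all tested genes. Their summed share of gene counts went from 1.83 to 4.62% at 2c (median 3.41%) to 0.105 to 0.219% at 8c (median 0.133%). Omt2a, an oocyte maturation gene, was at 1770.2 (857 to 2056) at 2c and 12.1 (3.2 to 39) at 8c (log2 fold change -6.60 ± 0.30 SE, adjusted p = 6.76e-35). Its near-identical neighbour Omt2b moved from 1334 (629 to 1505) to 11.9 (4.32 to 34), and reads could be split between them. Bmp15, an oocyte growth factor of the TGF-beta family, went from 64.7 (26.7 to 137) to 3.81 (0 to 17.7), without overlap (log2 fold change -3.77 ± 0.57 SE, adjusted p = 2.8e-08), although the table places it within a span shared with other annotated genes. Its partner Gdf9 went from 49.2 (27.3 to 97) to 5.46 (0 to 44.4), with overlap (log2 fold change -2.34 ± 0.61 SE, adjusted p = 0.000918). Zp3, a protein of the egg coat, went from 30.9 (12.8 to 53.9) to 8.71 (0 to 20.7) (log2 fold change -1.66 ± 0.54 SE, adjusted p = 0.00767), with overlap as well. In the MII oocytes the medians of Bmp15, Gdf9 and Zp3 had been 476, 222 and 136.

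Other oocyte transcripts were not called with spike-in totals. Nlrp5, a maternal-effect gene of the subcortical complex, was at 7.78 (2.06 to 28.3) at 2c and 1.3 (0 to 56) at 8c (log2 fold change -0.30 ± 0.66 SE, adjusted p = 0.74, and -1.41 with TMM, adjusted p = 0.0311). H1foo, the linker histone of the oocyte, was at 21 (9.4 to 49.1) and then 5.28 (0 to 59.4) (log2 fold change -1.15 ± 0.52 SE, adjusted p = 0.0599, and -2.02 with TMM, adjusted p = 0.000171). In both the highest 8c embryo stood above every 2c embryo while the 8c median was lower. The medians of Nlrp5 and H1foo in MII oocytes had been 128 and 1061, so most of their loss came before the 2c stage. The members that rose were Khdc3, Nlrp4c and Cd9. Cd9, the tetraspanin that the egg needs for sperm fusion and that embryos also make, went from 22.8 (6.38 to 81.5) to 422 (304 to 589) without overlap (log2 fold change 3.97 ± 0.44 SE, adjusted p = 1.13e-12). Khdc3, a subcortical complex member, went from 0 (0 to 2.4) to 20.5 (8.63 to 104) (log2 fold change 5.03 ± 0.77 SE, adjusted p = 5.56e-08). Gdf9 is shown as an oocyte gene whose upstream sequence holds no Ets core or GC box, at chr11:53246538-53246787, plus strand.
Gdf9: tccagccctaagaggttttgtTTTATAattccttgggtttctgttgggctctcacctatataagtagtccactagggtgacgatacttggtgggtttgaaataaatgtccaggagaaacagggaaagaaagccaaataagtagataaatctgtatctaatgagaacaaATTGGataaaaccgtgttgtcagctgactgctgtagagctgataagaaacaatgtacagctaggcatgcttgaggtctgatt
Its capitals mark a TATA motif on the other strand (TTTATA) 229 bases before the start and a CCAAT box on the other strand (ATTGG) 82 bases before it.

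Of 35 tested genes that store and remove maternal mRNA, 7 fell (20%, near the 16.2% of all tested genes) and 6 rose (17.1%, against 31.9%) with spike-in totals. Under TMM 15 fell and 6 rose, beside 28.9% and 21% of all tested genes. Btg4, the adaptor that recruits the CCR4-NOT deadenylase to maternal mRNA, was at 138 (62.9 to 401) at 2c and 3.6 (0.910 to 13.3) at 8c. No 8c embryo reached any 2c embryo (log2 fold change -4.99 ± 0.41 SE, adjusted p = 2.09e-18), and the median in oocytes had been 1411. Cnot6l, Pabpc1l, Eif4e1b, Lsm14b, Dcp2 and Zar1l fell too. Zar1, an RNA-binding maternal-effect factor, was near 0 at both stages (1.11 (0 to 3.76) and 0 (0 to 7.95)), and its log2 fold change of -0.24 ± 0.78 SE was not called (adjusted p = 0.834). Among the rises, Ago2, the small-RNA slicer, went from 13.8 (7.22 to 27.6) to 67.5 (9.44 to 158) with overlap (log2 fold change 2.22 ± 0.48 SE, adjusted p = 7.25e-05), and Rqcd1, a CCR4-NOT subunit, from 8.08 (3.33 to 17.3) to 48.2 (5.4 to 66.4) (log2 fold change 2.20 ± 0.55 SE, adjusted p = 0.000509).

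Among 34 tested genes of meiosis and its exit 7 fell (20.6%, near the 16.2% of all tested genes) and 5 rose (14.7%, against 31.9%) with spike-in totals. Scaling by TMM gave 14 that fell and 1 that rose, beside 28.9% and 21% of all tested genes. Wee2, an oocyte kinase of this list, was at 45 (14.4 to 128) at 2c and 0 (0 to 1.91) at 8c, without overlap (log2 fold change -6.64 ± 0.47 SE, adjusted p = 8.17e-22). Itpr1, the calcium channel of egg activation, went from 6.19 (2.31 to 18) to 0 (0 to 7.08) (log2 fold change -3.11 ± 0.58 SE, adjusted p = 4.32e-06). Mos, the kinase of meiotic arrest, was low at both stages (0.876 (0 to 6.06) and 0 (0 to 2.94), log2 fold change -2.28 ± 1.05 SE, adjusted p = 0.0635). The cyclins of mitosis differed: Ccnb1 was at 75.7 (51.1 to 228) and 58.1 (39 to 201) (log2 fold change -0.48 ± 0.33 SE, adjusted p = 0.228, and -1.35 with TMM, adjusted p = 0.000101), whereas Ccnb2 rose from 2.31 (0 to 5.56) to 9.53 (6.61 to 18.2) without overlap (log2 fold change 2.09 ± 0.50 SE, adjusted p = 0.000291). Bub3, a spindle checkpoint protein, went from 16.7 (2.02 to 24.5) to 32.4 (17 to 61) (log2 fold change 1.30 ± 0.46 SE, adjusted p = 0.0153), a call that was lost with TMM (adjusted p = 0.382) and when the libraries of the same well in both plates were summed (adjusted p = 0.0522).

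Obox genes, oocyte and early-embryo homeobox factors, went opposite ways. Obox5 fell from 51.4 (18.6 to 144) to 0 (0 to 2.66) without overlap (log2 fold change -5.84 ± 0.46 SE, adjusted p = 3.76e-19), from a median of 363 in MII oocytes. Obox6, with a median of 0 in MII oocytes, was at 90.3 (59.6 to 196) at 2c and 259 (142 to 523) at 8c, with a log2 fold change of 1.42 ± 0.43 SE (adjusted p = 0.00421) that was 0.49 and not called with TMM (adjusted p = 0.179). Gene counts per spike-in count, a measure of the polyadenylated RNA of the embryo, differed by 1.54 on the same log2 scale.

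**Figure D3:**
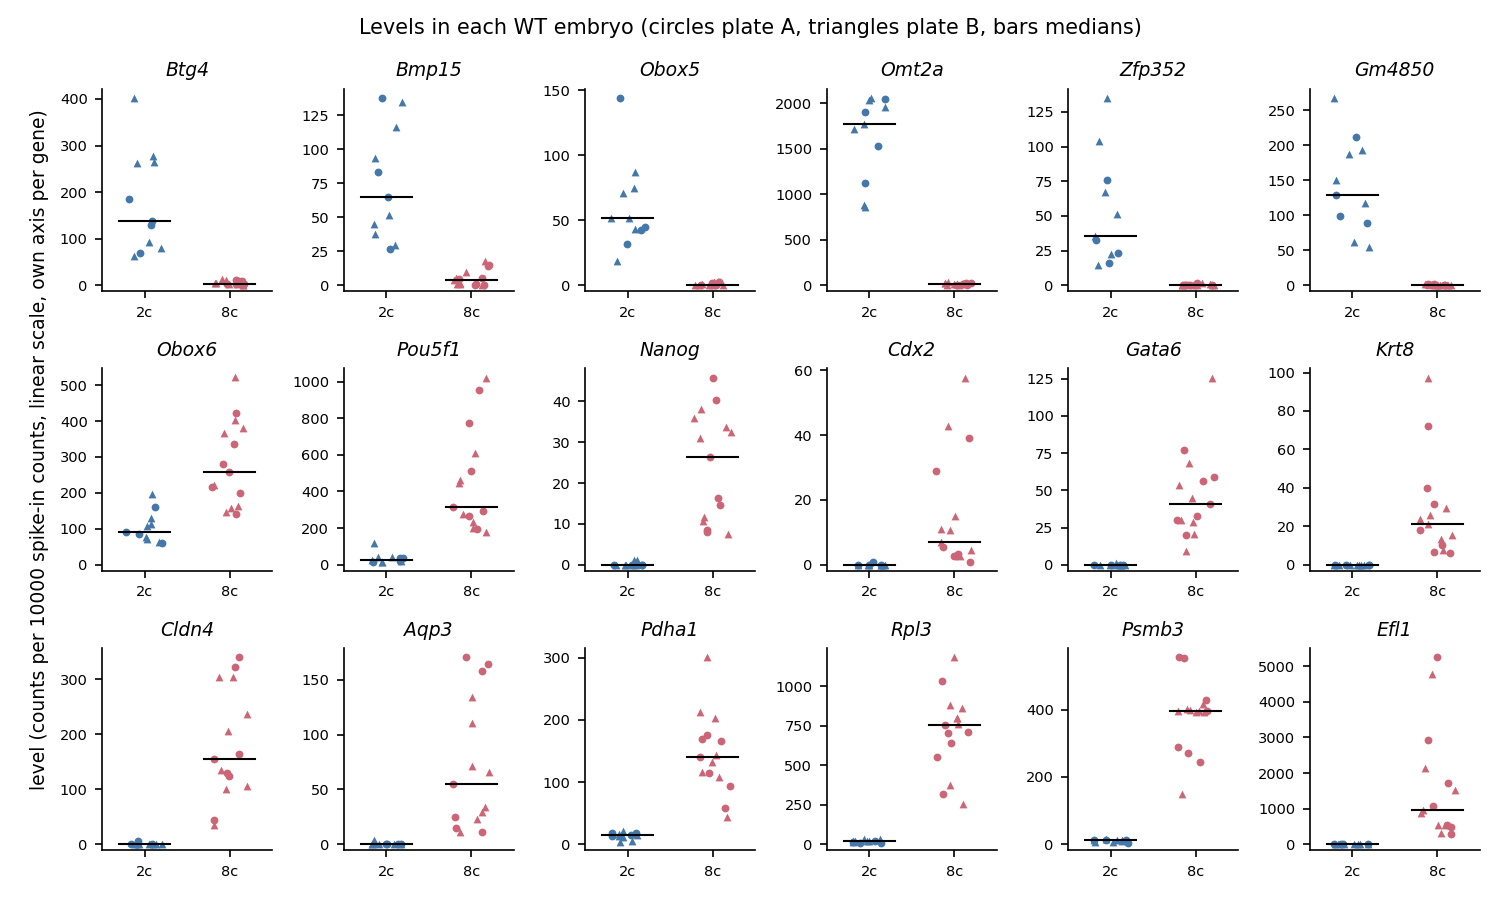
Level of 18 genes (vertical axes, counts per 10000 spike-in counts, linear and separate for each gene) in each of 11 WT 2c and 15 WT 8c embryos, circles for plate A, triangles for plate B and bars at medians. The upper row shows transcripts that fell, with Btg4 no higher than 13.3 at 8c, and the others rose, with 8c embryos spread widely for Cdx2, Aqp3 and Efl1.

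Pluripotency factors rose. Of 30 tested, 22 rose (73.3%, against 31.9% of all tested genes) and 3 fell (10%, against 16.2%) with spike-in totals (median log2 fold change 1.98). With TMM 18 rose and 4 fell (median 1.41), beside 21% and 28.9% of all tested genes. Pou5f1, the homeobox factor Oct4 at the head of the pluripotency network, was at 24.4 (14.3 to 119.8) at 2c and 316 (177 to 1021) at 8c (log2 fold change 3.71 ± 0.48 SE, adjusted p = 3.41e-10). The median of Pou5f1 in MII oocytes had been 261, so its 2c level was a low point between the 2. Nanog, its homeobox partner, was at 0 (0 to 1.2) and 26.4 (7.56 to 45.8) (log2 fold change 6.25 ± 0.66 SE, adjusted p = 1.88e-13). Tfcp2l1, a factor of the naive state, went from 1.11 (0 to 4.04) to 136 (50.1 to 388) (log2 fold change 6.75 ± 0.69 SE, adjusted p = 4.42e-14). In these 3 genes every 8c embryo stood above every 2c embryo. Klf5, which acts in both the inner cells and the trophectoderm, went from 4.61 (0.940 to 12.3) to 39.1 (8.8 to 108) with overlap (log2 fold change 2.91 ± 0.47 SE, adjusted p = 1.49e-07). Tfap2c, a factor of compaction and trophectoderm, went from 18.2 (1.01 to 73.1) to 91.4 (13.2 to 221) (log2 fold change 1.69 ± 0.53 SE, adjusted p = 0.00585), not called with TMM (adjusted p = 0.0774). Klf17, Prdm14 and Tcl1 fell. Klf17, a Krüppel-like factor stored by the oocyte, went from 71 (33.3 to 225) to 9.33 (1.8 to 61) (log2 fold change -2.35 ± 0.39 SE, adjusted p = 2.78e-07), and Tcl1, a co-activator of the AKT kinase, from 854 (527 to 1452) to 9.79 (0.800 to 40.4) (log2 fold change -6.17 ± 0.39 SE, adjusted p = 5.69e-25). Sox2 had no count in any embryo of either stage.

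Of 28 tested lineage factors 14 rose (50%, against 31.9% of all tested genes) and 4 fell (14.3%, against 16.2%) with spike-in totals. The TMM calls were 11 that rose and 7 that fell, beside 21% and 28.9% of all tested genes. Cdx2, the homeobox factor of the trophectoderm, was at 0 (0 to 0.912) at 2c and 7.08 (0.881 to 57.7) at 8c (log2 fold change 6.19 ± 0.92 SE, adjusted p = 4.08e-08), and the lowest 8c embryo did not exceed the highest 2c embryo. Tead4, the DNA-binding partner of Yap in the same lineage, went from 5.16 (0 to 24.4) to 69.7 (29.9 to 131) (log2 fold change 3.02 ± 0.50 SE, adjusted p = 3.43e-07). Gata6, the GATA factor of the primitive endoderm, was at 0 (0 to 1.15) and then 40.9 (9.44 to 125) (log2 fold change 7.73 ± 0.86 SE, adjusted p = 1.16e-12). Tead4 and Gata6 did not overlap between the stages. Gata3, Wwtr1, Amot, Hand1, Pdgfra and Dab2 were among the other rises, of which Wwtr1 and Pdgfra were not called with TMM. Gata2, Tead2, Gata4 and Arid3a fell under both scalings. Gata4 fell from 11.1 (2.16 to 21.9) to 4.4 (0 to 8.57) (log2 fold change -1.32 ± 0.46 SE, adjusted p = 0.0128), a call lost with same-well libraries summed (adjusted p = 0.0695). Arid3a, an AT-rich DNA-binding factor, fell from 3.76 (0 to 18) to 0 (0 to 1.71) (log2 fold change -3.60 ± 0.78 SE, adjusted p = 7.63e-05).

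Genes of adhesion, polarity and the cytoskeleton rose as well. Of 37 tested, 21 rose (56.8%, against 31.9% of all tested genes) and 3 fell (8.11%, against 16.2%). With TMM 16 rose and 5 fell, beside 21% and 28.9% of all tested genes. Cdh1, the E-cadherin that holds blastomeres together, was at 3.59 (0 to 9.56) at 2c and 63.8 (15.9 to 191) at 8c (log2 fold change 4.11 ± 0.73 SE, adjusted p = 1.55e-06). Cldn4, a tight-junction claudin, went from 0 (0 to 6.06) to 155 (35.9 to 339) (log2 fold change 7.68 ± 0.74 SE, adjusted p = 3.98e-15). Krt8, an epithelial keratin, was at 0 in all 2c embryos and at 21.2 (6.37 to 97.2) at 8c, at least 104-fold higher (adjusted p = 1.75e-11). Its filament partner Krt18 went from 0 (0 to 3.59) to 12.7 (3.64 to 51.7) (log2 fold change 4.05 ± 0.61 SE, adjusted p = 4.4e-08). These 4 genes did not overlap between the stages. Polarity genes were mixed. Pard6b went from 2.02 (0.940 to 7.01) to 5.46 (1.96 to 15.9) (log2 fold change 1.19 ± 0.49 SE, adjusted p = 0.0368), not called with TMM (adjusted p = 0.539) or with same-well libraries summed (adjusted p = 0.0582). Prkci, the atypical protein kinase C of the same complex, fell from 10.5 (5.39 to 19.2) to 0 (0 to 5.97) (log2 fold change -3.12 ± 0.46 SE, adjusted p = 2.24e-08), as did the adhesion protein Epcam, from 27.4 (11.1 to 38.3) to 2.0 (0 to 15.3) (log2 fold change -2.46 ± 0.52 SE, adjusted p = 5.2e-05).

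In the transport list 12 of 29 rose (41.4%, against 31.9% of all tested genes) and 3 fell (10.3%, against 16.2%), and 9 rose and 6 fell with TMM (21% and 28.9% of all tested genes), so the counts were not far from those of all genes. Aqp3, an aquaglyceroporin, went from 0 (0 to 3.76) to 55.5 (11.2 to 171) without overlap (log2 fold change 6.93 ± 0.71 SE, adjusted p = 4.58e-14). Atp1b1, a beta subunit of the sodium pump, was at 1.15 (0 to 4.79) and 1.8 (0 to 7.78) (log2 fold change 0.04 ± 0.64 SE, adjusted p = 0.987), with -0.79 and no call under TMM. Slc2a1, the glucose transporter GLUT1, went from 1.19 (0 to 4.61) to 3.2 (0 to 25.3) with overlap (log2 fold change 1.97 ± 0.67 SE, adjusted p = 0.0111), not called with TMM (adjusted p = 0.0874). Slc6a9, the glycine transporter by which early embryos regulate their volume, fell from 14.4 (2.06 to 26.3) to 1.77 (0 to 9.5) (log2 fold change -2.62 ± 0.64 SE, adjusted p = 0.000379), and the cystine transporter Slc7a11 fell from 6.92 (1.2 to 10.1) to 0 (0 to 7.2) (log2 fold change -2.44 ± 0.57 SE, adjusted p = 0.000201).

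Of 44 genes of glycolysis and the TCA cycle 25 rose (56.8%, against 31.9% of all tested genes) and 7 fell (15.9%, near the 16.2% of all tested genes). With TMM 21 rose and 12 fell, beside 21% and 28.9% of all tested genes. Pdha1, of the pyruvate dehydrogenase complex that feeds the cycle, went from 14.1 (3.58 to 21.9) to 141 (43.4 to 301) (log2 fold change 3.41 ± 0.46 SE, adjusted p = 1.36e-09). Suclg1, a subunit of succinyl-CoA ligase, went from 0.876 (0 to 3.23) to 33.6 (17 to 80.1) (log2 fold change 5.32 ± 0.54 SE, adjusted p = 4.65e-14). Hk1, a hexokinase that admits glucose to glycolysis, went from 0 (0 to 2.39) to 16.7 (7.78 to 53.3) (log2 fold change 4.87 ± 0.71 SE, adjusted p = 1.52e-08). All 3 were without overlap. Ldhb, the lactate dehydrogenase subunit abundant in eggs, fell from 63.3 (35.3 to 102) to 9.74 (2.4 to 25.4) (log2 fold change -2.60 ± 0.37 SE, adjusted p = 5.34e-09), with a median of 1512 in MII oocytes. Upp1, a uridine phosphorylase with a median of 0 in MII oocytes, fell from 10.5 (5.47 to 27.6) to 0 (0 to 2.4) without overlap (log2 fold change -4.02 ± 0.67 SE, adjusted p = 4.69e-07).

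The genes of protein synthesis, respiration and protein turnover rose nearly without exception with spike-in totals, and in smaller numbers with TMM. Of all tested genes 31.9% rose with spike-in totals and 21% with TMM. All 79 ribosomal protein genes rose with spike-in totals (median log2 fold change 3.54) and 78 with TMM (median 2.64), and none fell. Their share of all gene counts was 3.91 to 11.6% at 2c (median 6.04%) and 18.8 to 29.0% at 8c (median 26.1%), against a median of 0.422% in oocytes. Ribosomal protein genes have many processed pseudogenes, so part of each count could belong to a copy. Rpl3, of the large subunit, went from 20.3 (6.38 to 35.6) to 757 (255 to 1182) (log2 fold change 5.20 ± 0.49 SE, adjusted p = 1.19e-15), and Rpl7 from 62.1 (34.2 to 84.5) to 1457 (806 to 1757) (log2 fold change 4.53 ± 0.41 SE, adjusted p = 3.29e-16), both without overlap. Translation factors followed with 42 of 47 rising and 0 falling (31 and 1 with TMM), led by Eif3d, a subunit of the initiation factor that binds the cap, from 2.39 (0 to 14.1) to 165 (81.9 to 341) (log2 fold change 5.58 ± 0.56 SE, adjusted p = 2.17e-14). Eef1g, of the elongation complex, went from 9.09 (4.78 to 26.4) to 309 (163 to 414) (log2 fold change 4.94 ± 0.55 SE, adjusted p = 1.2e-12). In oxidative phosphorylation 69 of 72 rose and 0 fell (63 and 1 with TMM, medians 3.36 and 2.45). Ndufa12, of complex I, was at 1.11 (0 to 3.59) at 2c and 117 (52.9 to 158) at 8c (log2 fold change 6.60 ± 0.60 SE, adjusted p = 2.79e-16), and its fellow subunit Ndufa8 went from 0 (0 to 1.03) to 25.4 (7.56 to 67.4) (log2 fold change 7.12 ± 0.93 SE). In the list of proteasome and cytosolic chaperonin subunits 39 of 41 rose and 1 fell (36 and 2 with TMM). Psmb3, of the proteasome core, went from 13.1 (3.65 to 14.4) to 396 (150.2 to 555) (log2 fold change 5.08 ± 0.42 SE, adjusted p = 2.09e-18), and Psmb4 from 4.61 (0 to 17.9) to 220.4 (96.3 to 283) (log2 fold change 4.97 ± 0.56 SE). The member that fell was Psme4, an activator of the proteasome known from testis, from 14.4 (8.21 to 28.7) to 4.24 (0 to 23.9) (log2 fold change -1.59 ± 0.41 SE, adjusted p = 0.000873).

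Among 56 tested genes of ribosome assembly 30 rose (53.6%, against 31.9% of all tested genes) and 1 fell (1.79%, against 16.2%) with spike-in totals (median 0.95). With TMM 18 rose and 8 fell (median 0.06), beside 21% and 28.9% of all tested genes. Mrto4, which matures the large subunit, went from 7.54 (0 to 20) to 169.6 (96.3 to 215) (log2 fold change 4.22 ± 0.41 SE, adjusted p = 4.85e-15), while Polr3k, a subunit of RNA polymerase III, fell from 88.6 (50.5 to 201) to 42.4 (28.5 to 69.1) (log2 fold change -1.21 ± 0.28 SE, adjusted p = 0.000155). Gnl2, a nucleolar GTPase, went from 3.59 (1.01 to 10.9) to 56.1 (24.6 to 131) (log2 fold change 3.74 ± 0.55 SE, adjusted p = 1.27e-08). Splicing factors rose in 41 of 50 (82%) with no fall (31 and 2 with TMM). Sf3b4, of the U2 particle, went from 7.22 (1.08 to 21) to 152 (39.7 to 323), without overlap (log2 fold change 4.14 ± 0.60 SE, adjusted p = 1.09e-08), and Lsm5, of the U6 particle, from 0.876 (0 to 1.2) to 43.4 (12.3 to 68.5) (log2 fold change 5.999 ± 0.73 SE, adjusted p = 4.09e-11).

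**Figure D4:**
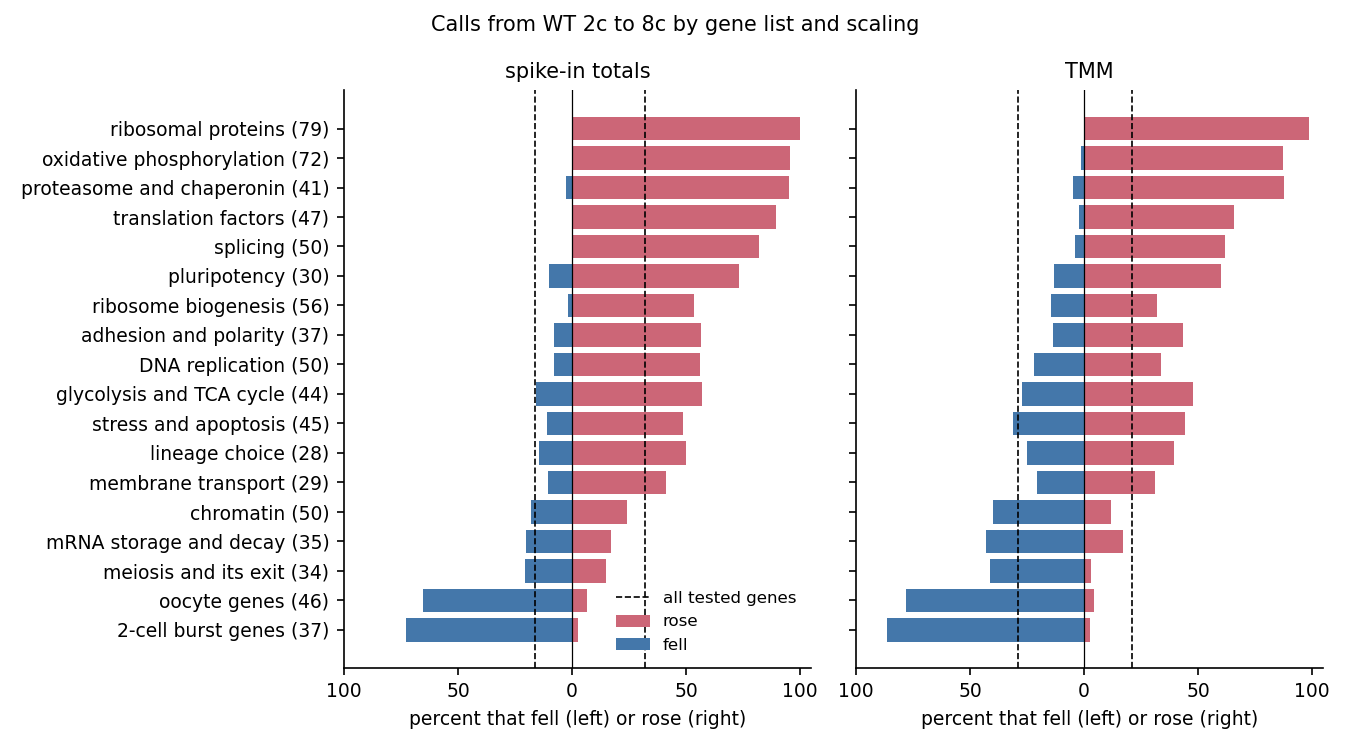
Percent of the tested members of 18 gene lists (number tested in parentheses) that rose (red, to the right) or fell (blue, to the left), with spike-in totals on the left and TMM on the right, and dashed lines at the shares of all tested genes (31.9 and 16.2%, 21 and 28.9%). Ribosomal proteins, oxidative phosphorylation and the proteasome stand at one end, and oocyte and 2-cell burst genes at the other, under both scalings.

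The upstream sequences of Rpl7 and Sf3b4 are shown because both hold the core of the Ets factors (CCGGAA, here as TTCCGG on the other strand), the motif of the 9 whose share differed most between rising and falling genes. Rpl7 lies at chr1:16094515-16094764, minus strand, and Sf3b4 at chr3:95976179-95976428, plus strand.
Rpl7: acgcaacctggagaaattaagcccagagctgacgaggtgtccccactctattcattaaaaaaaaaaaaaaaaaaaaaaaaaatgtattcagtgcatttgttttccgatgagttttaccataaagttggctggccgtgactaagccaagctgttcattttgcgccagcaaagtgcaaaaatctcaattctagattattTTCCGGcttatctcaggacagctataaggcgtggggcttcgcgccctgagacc
Sf3b4: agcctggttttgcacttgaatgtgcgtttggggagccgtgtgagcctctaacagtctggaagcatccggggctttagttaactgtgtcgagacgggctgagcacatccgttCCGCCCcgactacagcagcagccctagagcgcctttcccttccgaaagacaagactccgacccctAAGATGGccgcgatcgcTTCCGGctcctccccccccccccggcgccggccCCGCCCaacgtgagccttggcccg
In Rpl7 the capitals mark the Ets core 53 bases before the start. In Sf3b4 they mark the Ets core 57 bases before the start, a Yy1 core (AAGATGG) and a pair of GC boxes on the other strand (CCGCCC). Over 16508 tested genes with a promoter window of 250 bases before to 50 after the start, the Ets core was found in 23.9% of all, 30.8% of those that rose and 16% of those that fell. It was in 56% of the 50 splicing genes, 54.4% of the 79 ribosomal protein genes and 53.7% of the 41 proteasome and chaperonin genes, but also in 50% of the 50 replication genes. It was in 6.67% of the 30 pluripotency genes, which rose as well, in 8.7% of the 46 oocyte genes and in 0 of the 37 burst genes. The GC box (GGGCGG) was in 57.3% of all promoters, 60.5% of those of rising and 50.6% of those of falling genes. The bicoid-type core (GGATTA) was in 6.54% of all promoters, in 13 of 37 burst genes (35.1%) and in 12 of 56 ribosome assembly genes (21.4%), most of whose calls were rises, and the TATA box (TATAAA) in 8.51% and in 11 of 37 (29.7%). Of those 13 burst genes 10 share a run of 30 bases with another of the 13, and of the 11 with a TATA box 8 do, so they are not separate cases. A match is a run of letters in the window and was not tested for binding.

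**Figure D5:**
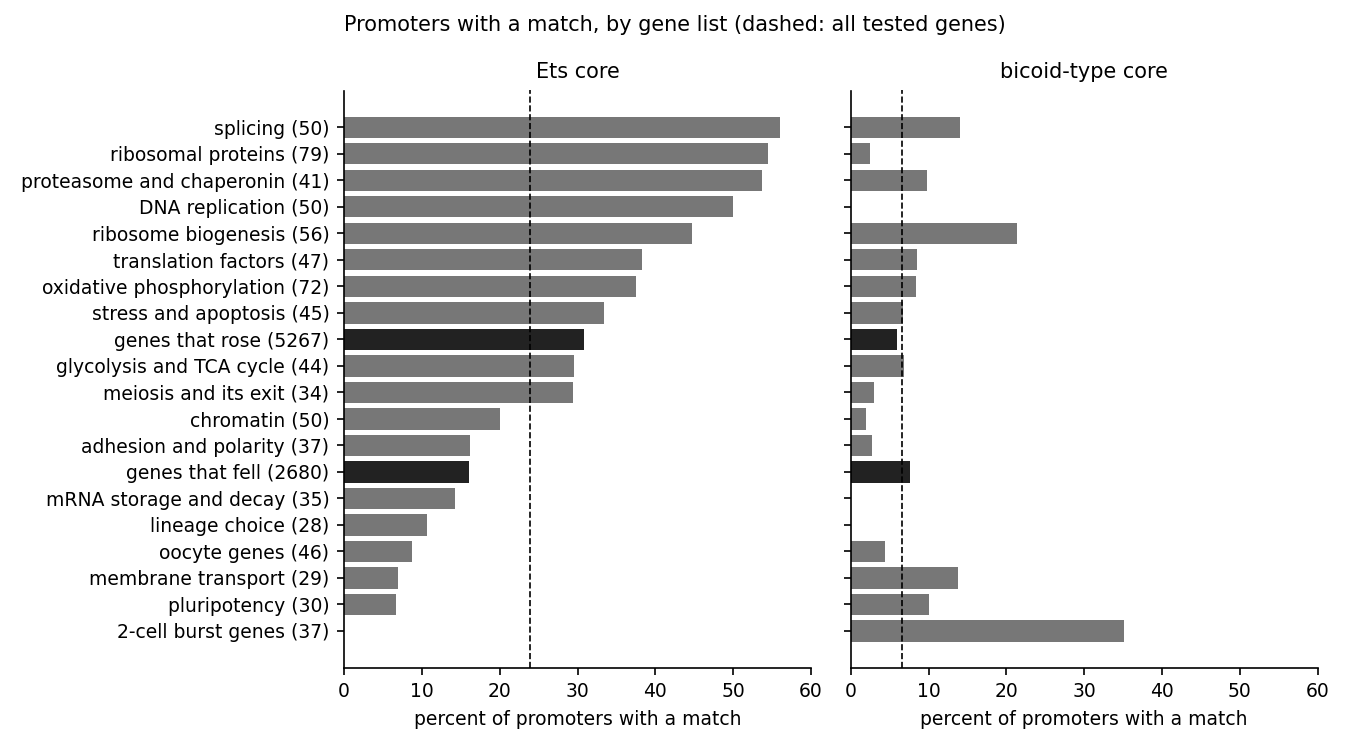
Percent of promoters (horizontal axes, from 0) with a match to the Ets core (left) and to the bicoid-type core (right) in 18 gene lists and in the genes that rose or fell (black bars), with the number of promoters in parentheses and a dashed line at all tested genes. Splicing, ribosomal protein and proteasome genes reach over 50% for the Ets core and the 2-cell burst genes 0, while the burst genes lead for the bicoid-type core.

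Of 50 replication genes 28 rose (56%, against 31.9% of all tested genes) and 4 fell (8%, against 16.2%) with spike-in totals. Under TMM 17 rose and 11 fell, beside 21% and 28.9% of all tested genes. Pold1, the catalytic subunit of DNA polymerase delta, was at 0 in all 2c embryos and at 12.4 (3.6 to 18.7) at 8c, at least 41.3-fold higher (adjusted p = 5.55e-09). Orc1, of the origin recognition complex, fell from 22.2 (13.3 to 51.5) to 8.43 (1.58 to 14.2) with overlap (log2 fold change -1.41 ± 0.36 SE, adjusted p = 0.000622). Rfc4, of the clamp loader, rose from 0 (0 to 1.15) to 30.04 (14.2 to 45.1) (log2 fold change 5.64 ± 0.72 SE, adjusted p = 2.46e-10), and Gins2, of the replicative helicase, fell from 6.19 (1.01 to 21.6) to 2.59 (0 to 7.62) (log2 fold change -1.36 ± 0.54 SE, adjusted p = 0.0303), a call lost with same-well libraries summed (adjusted p = 0.0538). Among chromatin genes 12 of 50 rose (24%, against 31.9% of all tested genes) and 9 fell (18%, against 16.2%) with spike-in totals. Only 6 rose and 20 fell with TMM, beside 21% and 28.9% of all tested genes. Tet2, a 5-methylcytosine oxidase, went from 0 (0 to 6.06) to 52 (3.78 to 162) (log2 fold change 5.97 ± 0.80 SE, adjusted p = 1.05e-09), and Smarcd1, of the SWI/SNF complex, from 11.5 (3.23 to 17.5) to 198 (69.9 to 347) (log2 fold change 4.29 ± 0.48 SE, adjusted p = 2.3e-12). Zfp57, which protects imprints, fell from 50.5 (23.3 to 158) to 6.67 (0.800 to 30.5) (log2 fold change -2.72 ± 0.47 SE, adjusted p = 1.04e-06), and the histone demethylase Kdm4d from 2.06 (0 to 14) to 0 (0 to 3.0) (log2 fold change -3.92 ± 0.76 SE, adjusted p = 9.18e-06). Dnmt1, Dnmt3a and Tet3 were among the other falls, and Dnmt3b, Dnmt3l and Tet1 among the other rises. In the stress and apoptosis list 22 of 45 rose (48.9%, against 31.9%) and 5 fell (11.1%, against 16.2%) with spike-in totals. Of the same list 20 rose and 14 fell with TMM, beside 21% and 28.9% of all tested genes. Hspa8, the constitutive Hsp70 chaperone, went from 42.2 (23.7 to 75.5) to 1036 (508 to 2166) (log2 fold change 4.58 ± 0.61 SE, adjusted p = 7.85e-10). Hsf2, a heat-shock factor, went from 0 (0 to 1.08) to 5.31 (0.848 to 38.7) with overlap (log2 fold change 5.75 ± 0.85 SE, adjusted p = 1.76e-08). Mdm4, an inhibitor of p53, fell from 462 (307 to 823) to 19.5 (4.0 to 68.2) (log2 fold change -4.20 ± 0.33 SE, adjusted p = 1.49e-19), and the Bcl2 family member Bcl2l10 from 167 (57.7 to 469) to 2.64 (0 to 22.2) (log2 fold change -5.21 ± 0.46 SE, adjusted p = 9.57e-17), with no overlap in Hspa8, Mdm4 and Bcl2l10.

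The largest rises, chosen by fold as above, were genes of varied function that were nearly silent at 2c. Slc46a1, the proton-coupled folate transporter, was at 0 in all 2c embryos and at 64.8 (22.7 to 97.9) at 8c, at least 222-fold higher (adjusted p = 4.32e-18). Efl1, a GTPase that frees the large ribosomal subunit for translation, went from 3.76 (0 to 11.1) to 972 (292 to 5251) (log2 fold change 8.53 ± 0.78 SE, adjusted p = 3.37e-16), and the 8c embryos differed widely. Ckmt1, the mitochondrial creatine kinase, went from 0 (0 to 1.08) to 74.3 (35.6 to 202) (log2 fold change 8.50 ± 0.67 SE, adjusted p = 2.84e-18). Bloc1s1, a subunit of lysosome-related complexes, went from 0 (0 to 1.03) to 62.4 (31.2 to 127) (log2 fold change 8.34 ± 0.83 SE, adjusted p = 1.26e-14). Epas1, the hypoxia factor HIF-2 alpha, went from 0 (0 to 1.2) to 71.6 (11.3 to 222) (log2 fold change 8.05 ± 0.78 SE, adjusted p = 3.83e-15). Id3, an inhibitor of helix-loop-helix factors, went from 0 (0 to 1.75) to 83.9 (10.8 to 544) (log2 fold change 8.04 ± 0.77 SE, adjusted p = 3.61e-15). Fbp2, a fructose bisphosphatase, went from 0 (0 to 2.39) to 173 (72.7 to 262) (log2 fold change 8.01 ± 0.71 SE, adjusted p = 8.34e-17). These 7 genes did not overlap between the stages, nor did 2200002D01Rik or Krt8. Among all tested genes 1311 (7.94%) had every 8c embryo above every 2c embryo. The largest rises were picked by fold in these same embryos, so their separation is not separate support. Ly6c1, a surface protein, was at 4.54 (0 to 247) at 8c and was at 0 in all 2c embryos (adjusted p = 2.5e-08), with overlap at 0. In the gene table Atp1b1, Ckmt1, Efl1, Gata6, Gins2, Gnl2, Hk1, Pdha1, Rfc4, Rqcd1, Slc6a9 and 2200002D01Rik overlap a gene on the opposite strand, and counts of such a pair may not have been told apart.

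Markers of other cell types made up small shares of the counts. Of 25 markers of cumulus cells, the ovarian cells around the egg, 11 were tested. Of these 3 fell (27.3%, against 16.2% of all tested genes) and 0 rose. The summed share of the 25 markers was at most 0.0141% of gene counts in any 2c and 0.00541% in any 8c embryo. Of 15 sperm markers 5 were tested. Among these 1 rose (Gapdhs) and 2 fell (Prm2 and Ldhc), 20% and 40%, against 31.9% and 16.2% of all tested genes. Ldhc went from 5.16 (0 to 12.8) to 0 (0 to 3.81). The summed share of the 15 sperm markers was at most 0.0212% in any 2c and 0.00591% in any 8c embryo. Plag1 itself gave 1 count in 1 of 11 WT 2c embryos and 10 counts in 5 of 15 WT 8c embryos. Xist, the RNA of the inactive X chromosome, was at 106 to 350 counts in 8 of the 15 8c embryos and at 0 to 2 in the other 7, and at 0 to 3 in the 11 2c embryos. The Y-linked genes Ddx3y and Eif2s3y gave 2 to 14 counts together in each of those 7 and none in the 8. In the 8 embryos with high Xist its antisense partner Tsix had nearly the same counts, and the pair could not be told apart. At 8c, libraries of the same well in both plates deviated together from their stage mean: over genes, r was 0.22 to 0.62 in the 7 such pairs, against -0.41 to 0.19 in the 49 other pairs across plates. At 2c the r of 0.19 and 0.28 in the 2 same-well pairs lay within the range of the 26 other pairs (-0.26 to 0.30). In 3 of the 8c wells Xist was high in 1 plate and near 0 in the other, so those pairs were not the same embryo. With the libraries of each well summed to 1 (9 wells at 2c and 8 at 8c), 4593 genes rose (27.8%) and 2287 fell (13.9%).

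Few genes were called when the change from 2c to 8c was compared between WT and matPlag1KO embryos. With spike-in totals, 92 of 16511 genes changed differently (0.557%), 61 with a higher change in WT and 31 with a lower one. With TMM there were 380 (2.3%), and with same-well libraries summed there were 3 (0.0182%), namely Gm2560, Aqp3 and Cacng8, of which the first and last were named after their values were seen.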

How the data were processed

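Single MII oocytes and embryos were lysed whole and reverse transcribed from poly(A) tails with 5′ template switching. They were pooled as libA and libB, here called plates A and B, which each held every stage and genotype. ERCC spike-in RNA was added to the reverse transcription mix. According to the methods, unique molecular identifiers were joined and reads were mapped to mm9 with TopHat; the submitters' notes name HOMER for counting, with no versions given in the sources used here. The table that the authors deposited holds raw counts, not normalized, of 24422 genes and 92 ERCC RNAs over 90 libraries. Whether strand was used in the counting is not given in the sources used here.

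Libraries with a median below 1 CPM over expressed genes were left out (78 kept), and a gene was tested where 5 or more of these libraries reached 1 CPM. All 6 groups of stage and genotype were fitted together in edgeR 4.0.16 (quasi-likelihood test) with library sizes proportional to spike-in totals, with calls made below 0.05 after Benjamini-Hochberg adjustment of p. Levels are counts per 10000 spike-in counts. Alternatives used TMM, DESeq2 1.42.0, other filters, each plate, and, chosen after seeing the data, same-well libraries summed and the 8c libraries of well E1 left out. On simulated counts for 16511 genes of the 8c against 2c comparison, 68% of 100 genes changed 4-fold were recovered. Of 100 genes changed 2-fold 8% were recovered, and there were 8 false calls. The changed genes were drawn only from genes above a minimum mean level. With 200 genes changed, far fewer than were called in the real comparison, the adjustment of p was stricter. These shares therefore do not carry over to the real comparison. A gene not called may still have changed 2-fold. The floor of 3 counts over a group covers counting error only.

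The members, gene lists and motifs were chosen with earlier results of these data known. Genes named with values are a fixed panel of 32 (29 tested), the 10 highest and 10 lowest fold changes among genes called alike under both scalings, with the same sign of the mean change in both plates and a stage mean of 50 CPM or more, and up to 2 rising and 2 falling members of each list with at least 20 CPM. A gene that this rule names is not reported here. Other list members are named without values. Gene positions are those of the deposited table on mm9, and promoter windows were read from the mm9 genome at those positions (16508 of 16511 tested genes).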

Additional observations from a re-analysis of the deposited data

Results flagged for a closer look

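Genes named above whose change from 2c to 8c differed between WT and matPlag1KO embryos, by the interaction term in edgeR with spike-in totals, were Aqp3, Ckmt1, Efl1, Epas1 and AA415398. Aqp3, the aquaglyceroporin, rose by 4.60 more on the log2 scale in WT (adjusted p = 0.00347). Its median level was 0 at 2c and 55.5 at 8c in WT, against 2.24 and 19.5 in matPlag1KO. It was called under TMM (difference 4.67, adjusted p = 0.000515), with a plate term (adjusted p = 0.00531) and with same-well libraries summed (difference 4.84, adjusted p = 0.0372). Ckmt1 rose by 3.99 more in WT (adjusted p = 0.0108), from a median of 0 to 74.3 against 1.12 to 45.8. Efl1 rose by 3.65 more in WT (adjusted p = 0.0210), from 3.76 to 972 against 13.9 to 340.0. Epas1 rose by 3.63 more in WT (adjusted p = 0.04996), but was not called with a plate term (adjusted p = 0.0539), going from 0 to 71.6 against 0 to 28.8. AA415398 had a difference of -2.92 (adjusted p = 0.0368), falling from 65.7 to 0 in WT and from 24.5 to 1.10 in matPlag1KO. With same-well libraries summed, the difference was not called in Ckmt1 (adjusted p = 0.118), Efl1 (adjusted p = 0.221), Epas1 (adjusted p = 0.251) or AA415398 (adjusted p = 0.172). In each of the 5 genes the change had the same direction in both genotypes. The groups of WT embryos were too large for the test of single outlying samples.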

How the results depend on the processing

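The split of rising and falling genes rested on the scaling. With TMM 3475 genes rose and 4767 fell, and with DESeq2 median-ratio factors 3347 rose and 4896 fell, against 5269 and 2681 with spike-in totals. The median log2 fold change turned from 0.53 to -0.12 and -0.18 under these scalings, which set the typical gene as unchanged. In plate A alone, with 4 2c and 7 8c libraries, 1427 genes fell and the median was 0.86. The 12 alternatives other than these 3 kept both counts within 1.5 times. The genes whose change differed between the genotypes numbered 92, and 380 with TMM, 7 at an adjusted p under 0.01 and 3 with same-well libraries summed. Gene counts per spike-in count were higher at 8c in each of 4 alternatives (by 1.502 to 1.66 on the log2 scale). Of 100 named genes none that was called reversed. Atp1b1 turned to -0.79 with TMM and -0.82 with median-ratio factors, and Nlrp5 to 0.011 in plate B, none of them called. The cause was not tested. Motif shares fell in the shorter window (Ets core 24.0% of rising and 10.2% of falling genes). No paired analysis was possible because the wells carry no shared replicate number across stages. Library depth limits what can be called for low transcripts.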

Other observations

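Further gene groups, chosen after their values were seen and given without a test of the group, moved between the stages. The Tcl1 family on the same stretch of chromosome 12, co-activators of the AKT kinase, fell as a block. All 6 tested genes fell under both scalings (median log2 fold change -6.29 with spike-in totals and -7.24 with TMM), for example Tcl1b1 from a median level of 482 at 2c to 3.78 at 8c and Tcl1b3 from 211 to 0. The Tcl1b genes are close copies, and reads could be split between them.

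Genes of the lysosome rose in 20 of 25 cases with spike-in totals and in 16 with TMM, beside 31.9% and 21% of all tested genes, and 1 and 2 fell (16.2% and 28.9%). Grn, the precursor of granulins, went from a median of 1.11 to 329.9 (log2 fold change 7.68), Ctsd, a lysosomal aspartic protease, from 1.82 to 98.9 (5.97), and Hexa, a hexosaminidase subunit, from 0 to 21.6 (6.63). Mitochondrial ribosomal proteins rose in 71 of 76 cases with spike-in totals and in 56 with TMM, with 1 and 2 falls. Mrpl33 went from a median of 0 to 27.7 (7.20), while Mrps30 fell from 10.8 to 2.38 (-2.004). In the creatine system Ckmt1 was joined by the transporter Slc6a8, from 0 to 35.5 (6.87), and by the cytosolic kinase Ckb, from 27.5 to 338 (3.51). Gamt, which makes creatine, had a log2 fold change of 1.06 and Ckm, the muscle kinase, of 1.32, and neither was called.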
